A study of Mus musculus with 1479 samples.

Results

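Cluster 9 is 1 of the 11 groups into which the authors had divided single cells of the mouse urinary bladder, and its members are the cells whose label carries that cluster number. It held 91 of the 1479 cells. Of these, 85 (93.4%, exact 95% interval 86.2% to 97.5%) were Cspg4dsRED cells of plate bladder_352s, 3 were C57BL6 cells, 2 were PdgfrbGFP cells and 1 was an Acta2GFP cell. Unless another line is named, values for cluster 9 are those of the 85 Cspg4dsRED cells. They were set against the 27 other fibroblast cells of the same line and plate, which carried the labels 2 (3 cells), 5 (2 cells), 6 (1 cell), 7 (11 cells) and 8 (10 cells) and are called same-plate fibroblasts. Clusters 4 and 10 were left out of that reference. Cluster 10 carried the markers of mural cells, the pericytes and smooth muscle cells around vessels, and cluster 4 had a median of 769.5 reads of 12 fibroblast markers in 50000, against 1815 in cluster 9.

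The study sorted CD31-negative cells of the bladders of adult male mice, 10 to 20 weeks old, and made 1 Smart-seq2 library of each, a full-length cDNA library in which reads of the same molecule cannot be told apart. Cspg4dsRED mice carried the transgene Tg(Cspg4-DsRed.T1)1Akik/J, a red fluorescent reporter of Cspg4, the gene of the surface proteoglycan NG2. PdgfrbGFP mice carried Tg(Pdgfrb-eGFP) JN169Gsat/Mmucd, PdgfraGFP mice a nuclear green fluorescent protein in the Pdgfra gene, Acta2GFP mice a green fluorescent protein under Acta2 control, and C57BL6 mice no reporter. All had been backcrossed to C57Bl6/J, reporter strains were also combined, and elastase was added to the dissociation only for Acta2GFP. The labels name no animal, so the cells of a line and plate were treated as 1 sample, and no p-value is given for any difference between clusters, which were themselves made from these expression values.

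Fibroblasts make and remodel the extracellular matrix of connective tissue. In the bladder they fill the lamina propria and the spaces between smooth muscle bundles, and those around vessels and in loose outer tissue are often marked by Pi16, Cd34 and Dpt. NG2 is best known on pericytes and smooth muscle cells, so a red reporter cell is not by itself expected to be a fibroblast. Fibroblasts taken out of tissue with enzymes readily switch on immediate-early genes, transcription factors and feedback regulators that are induced within minutes by many stimuli.

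The marker genes bore out the fibroblast part of the label. After each cell had been thinned to 50000 reads, all 12 fibroblast markers were read in over 50% of the 85 cells, and 11 of them were at 10 or more reads in over 50%. Col1a1, Col1a2, Dcn, Lum, Fbln1 and Loxl1 were read in 100% of them (95.8% to 100%), Col3a1 and Cd34 in 98.8%, Mfap5 in 90.6%, Pdgfra in 84.7%, Fbln2 in 83.5% and Col5a1 in 57.6%. The lowest cell of cluster 9 had 1124 thinned reads of the 12 genes together and the median cell 1815, against a median of 19 in the 49 cluster 10 cells of the plate. Intervals cover counting error only, because neither reads nor sorted cells are independent molecules or animals.

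Most markers of other cells were low in cluster 9. Among the mural markers, Rgs5 was read in 3.53% of its cells, Mcam in 7.06%, Myh11 in 11.8% and Tagln in 16.5%, against 42.9%, 89.8%, 97.96% and 100% of the cluster 10 cells beside them. Higd1b had no read in any thinned cluster 9 cell. Others of the list were read more often, Des in 23.5%, Abcc9 in 36.5% and Acta2, the gene of smooth muscle actin, in 68.2% of cells. Acta2 averaged 49 against 23.5 in the same-plate fibroblasts, a log2 ratio of 1.03 that was past 1 in both blocks of rows described below but not with cluster 4 in the reference (-0.00161). Its mean in cluster 10 was 6478. The summed level of the 12 mural markers ran from 0 to 1441 reads per 500000 with a median of 51.7 in cluster 9, from 0 to 832 with a median of 83.2 in the same-plate fibroblasts, and had a median of 13913 in cluster 10. Of the 11 markers of fibroblasts under the urothelium, Tnc, Dkk2, Bmp7 and Mc5r had no read in any thinned cluster 9 cell, which for 85 cells allows a share of up to 4.25%, and Car3 was read in 2.35%. Cxcl14 was the most widespread of the list, with reads in 24.7% of cells and a highest level of 2171, against 50% of the same-plate fibroblasts, and Col12a1 was read in 5.88%. The summed list reached 2374 in 1 cluster 9 cell, with a median of 1.53. The 10 visceral smooth muscle markers summed to a median of 40.04 in cluster 9 (highest 1058) and 19.5 in the same-plate fibroblasts (highest 1082). Their median in cluster 10 was 7411. Summed endothelial, immune, urothelial, Schwann cell, mesothelial and adipocyte markers had medians of 0 to 13.1 reads per 500000, although Pecam1 was read in 50.6% of cluster 9 cells and 69.2% of the reference. Cells with CD31 on the surface were sorted out, and the authors removed cells with endothelial or immune signatures, so low levels of those 2 lists follow in part from the selection.

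Cspg4 itself was sparse in these cells. It was read in 16.5% of the thinned cells (9.31% to 26.1%), with a lowest and a median level of 0, a highest of 190 and a mean of 5.78 reads per 500000. The same-plate fibroblasts had a mean of 43.8 and a highest cell at 471, cluster 4 of the plate had a mean of 280 and cluster 10 one of 550, with reads in 100% of cells of both. Pdgfra averaged 251.3 and Pdgfrb 126.1 in cluster 9, against 238.6 and 91.6 in the reference. The authors had taken out cells with neither of these genes, so the presence of at least one of them was set by that filter. Red fluorescence per cell was not analysed here.

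Cluster 9 made up 75.9% (66.9% to 83.5%) of the fibroblast cells of its line and plate. It was 1.6% of the C57BL6 fibroblasts, 0.855% of the Acta2GFP fibroblasts and 0.557% of the 359 PdgfrbGFP fibroblasts of plate bladder_074s. No cell of it was found among the PdgfrbGFP fibroblasts of bladder_515s and bladder_881s or the PdgfraGFP fibroblasts, with upper limits of 2.25%, 1.53% and 2.51%, nor among the 9 Cspg4dsRED fibroblasts of a second plate, bladder_689s, whose number allows up to 33.6%. Cluster 3 had the opposite distribution: it was 8.97% to 48.1% of the fibroblasts in the 6 groups of the other lines, 1 of those 9 cells, and absent from plate bladder_352s, where the upper limit was 3.24%. Line, sort and plate cannot be told apart for cluster 9, since nearly all its cells share all 3.

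**Figure D1:**
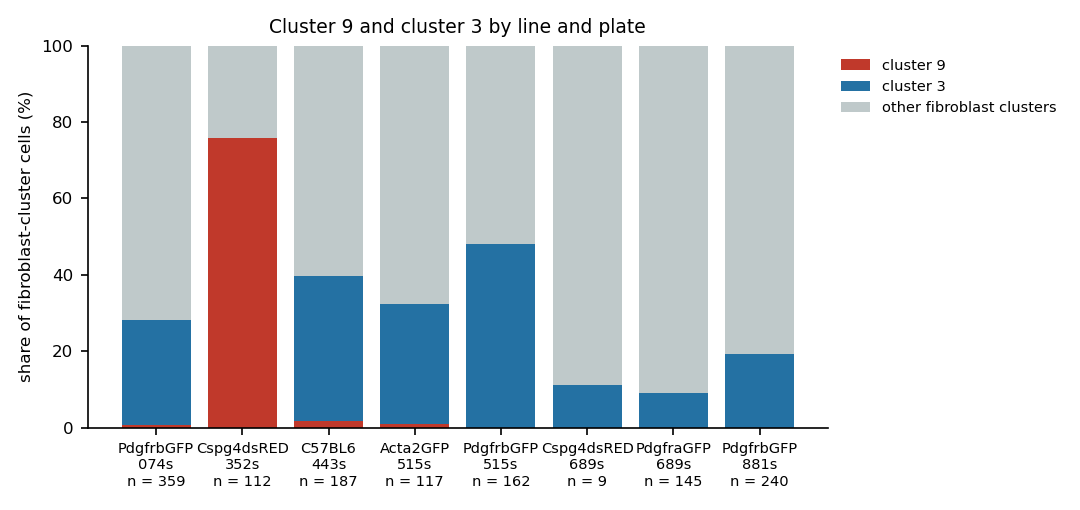
Share of cluster 9, cluster 3 and the other fibroblast clusters among the fibroblast cells of each line and plate, in percent, as stacked bars. Cluster 9 reached 75.9% in Cspg4dsRED cells of bladder_352s and at most 1.6% elsewhere, while cluster 3 was at 0 there.

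Position on the plate went with the cluster number. In rows E to G, 60 of 69 fibroblasts were cluster 9 (87%, 76.7% to 93.9%) and no cell of cluster 4 or 10 was present. In rows H to O the count was 25 of 43 (58.1%, 42.1% to 73%), and all 49 cluster 10 cells lay in rows H to L. The labels give no gate or animal per row, and the source of this split was not tested. Of the 91 genes past a log2 ratio of 1 or -1 (defined below) that were followed by block, 60 passed in both blocks, 15 in rows E to G alone, 15 in rows H to O alone and 1 in neither. Those 91 had been picked for their values, and over all measured genes 52.3% of the 1298 higher and 30.4% of the 1263 lower ones passed in both.

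Depth differed less between the classes. Cluster 9 cells had 55921 to 393512 endogenous reads with a median of 175439, and the same-plate fibroblasts 49532 to 285344 with a median of 130335. At equal depth, a median of 2365 genes was detected in cluster 9 and 2270.5 in the reference, where 1 cell was too shallow to be thinned. Spike-in reads took a median of 0.961% in cluster 9 and 1.42% in the reference, and mitochondrial reads 1.14% and 1.31%. Cluster 3 cells of other plates had a median of 3773 genes at the same depth, and such shares cannot be compared across plates. Within cluster 9, cells of rows E to G had a median of 198474 reads and 2399.5 genes after thinning, and those of rows H to O 152195 reads and 2135 genes.

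Immediate-early genes formed the list with the most members higher in cluster 9. A level is a count scaled to 500000 endogenous reads and averaged over cells, and the log2 ratio compares the means of cluster 9 and the same-plate fibroblasts after adding 1 to each. A gene was measured when the average of both means reached 5 and at least 10% of the cells had a read, and it counts as higher or lower from a log2 ratio of 1 or -1. Of 27 measured immediate-early genes, 14 were higher and 1 was lower, with a median log2 ratio of 1.02. Over all 7130 measured genes 18.2% were higher and 17.7% lower, and the median was -0.05. The ratios describe these libraries, since every gene took part in the clustering.

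The start regions of 3 of these genes are printed here because they belong to genes described next and hold a short element found in 14 of the 23 listed genes with a promoter. Each is the RefSeq promoter window of GRCm38.p6, 250 bases before to 50 after the transcript start, 5′ to 3′ on the strand of the gene. Capitals mark TGACG or its reverse complement CGTCA, the core of the element bound by CREB and ATF factors, searched on both strands.
Fos: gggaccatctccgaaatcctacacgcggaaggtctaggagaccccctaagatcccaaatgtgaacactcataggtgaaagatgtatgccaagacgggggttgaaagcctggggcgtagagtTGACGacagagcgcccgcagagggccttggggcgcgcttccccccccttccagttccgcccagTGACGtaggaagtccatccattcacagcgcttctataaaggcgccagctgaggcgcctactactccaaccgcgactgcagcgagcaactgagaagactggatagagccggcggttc
Atf3: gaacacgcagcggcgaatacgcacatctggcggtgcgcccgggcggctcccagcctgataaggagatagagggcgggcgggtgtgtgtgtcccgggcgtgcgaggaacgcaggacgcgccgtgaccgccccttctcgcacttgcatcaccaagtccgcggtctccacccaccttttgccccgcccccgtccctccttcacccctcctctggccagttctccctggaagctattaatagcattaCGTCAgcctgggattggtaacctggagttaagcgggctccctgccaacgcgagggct
Nr4a1: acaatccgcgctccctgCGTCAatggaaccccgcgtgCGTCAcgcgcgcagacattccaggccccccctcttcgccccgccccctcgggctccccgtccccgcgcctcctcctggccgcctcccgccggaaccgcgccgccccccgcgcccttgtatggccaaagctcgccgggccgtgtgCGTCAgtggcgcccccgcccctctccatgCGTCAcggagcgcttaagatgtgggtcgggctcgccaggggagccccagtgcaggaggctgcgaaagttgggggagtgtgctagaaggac
The Fos window is chr12:85473640-85473939 on the plus strand with 2 matches, the Atf3 window chr1:191183284-191183583 on the minus strand with 1, and the Nr4a1 window chr15:101266596-101266895 on the plus strand with 4. Of the 28 listed genes, 23 had a promoter in the table, 14 of these (60.9%) held the core at least once and 8 (34.8%) at least 2 times, beside 23.05% and 5.70% of the 27025 genes with a promoter. A match of these letters is a description of the sequence and no sign that a factor was bound.

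Atf3, a stress-induced repressor, had the highest ratio of the list. Its level ran from 0 to 1327 over the 85 cells with a median of 7.44 and a mean of 190, and from 0 to 52.8 with a mean of 6.63 in the reference, a log2 ratio of 4.65. The upper part of the cluster 9 cells lay above every reference cell, while the rest overlapped them, and a read was seen in 56.5% and 38.5% of the thinned cells. The ratio was 4.75 in rows E to G and 4.24 in rows H to O. Both clusters 7 and 8 of the plate were low, at 5.82 and 4.56, and cluster 10 was high, at 746. On other plates clusters 7 and 8 averaged 69.1 and 141.9.

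Nr4a1, an orphan nuclear receptor, averaged 1067 in cluster 9 (median 687, highest 4469) and 258.7 in the reference (median 22.2, highest 3010), a log2 ratio of 2.04. Dusp1, a phosphatase that shuts off MAP kinases, averaged 1722 against 478 (1.85), with medians of 1574 and 46.4. These medians lay far apart although the ranges overlapped. Fos averaged 1991 against 753 (1.40), its partners Jun 615 against 262.1 (1.23) and Junb 1086 against 535 (1.02), and Fosl2 37.2 against 9.01 (1.93). Egr1 (1.09), Ier2 (1.18), the mRNA decay factor Zfp36 (1.64), the antiproliferative Btg2 (1.57), Gadd45b (1.39) and the matricellular Ccn1 (1.16) were higher as well. In rows H to O the ratios of Egr1 (0.93), Ier2 (0.90), Zfp36 (0.95), Junb (0.78), Ccn1 (0.73) and Gadd45b (0.32) stayed below 1, and in rows E to G that of Jun did (0.80), while Fos, Nr4a1, Dusp1, Atf3, Fosl2 and Btg2 passed in both. Nr4a2 was the member with a lower mean, 22.5 against 49.3 (-1.10), and its sign turned to 2.08 in rows E to G.

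Summed over the list, cluster 9 cells held 38 to 3226 of 50000 thinned reads with a median of 1091. The reference cells held 28 to 1936, and their median, scaled to 500000 reads, was 3025 against 10911 in cluster 9. The thinned medians were 1472 in cluster 4 and 2497 in cluster 10. On the other plates cluster 3 had medians of 666 to 856, cluster 7 of 346 to 571, cluster 8 of 775 to 1367 and cluster 6 of 534 to 1300. Cluster 9 therefore stood above the fibroblasts of its own plate and within the range of medians of clusters 6 and 8 elsewhere. When cluster 4 was added to the reference, Nr4a1 (-0.51), Zfp36 (-0.30), Egr1 (-0.22) and Fosl2 (-0.01) were no longer higher in cluster 9, and the median of the list fell to 0.17.

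The counts for stress and hormone lists stand beside 18.2% higher and 17.7% lower over all genes. Of 7 measured glucocorticoid targets 5 were higher and none lower (median 1.12): the clock gene Per1 averaged 69.4 against 9.94 (2.68), the kinase Sgk1 94.8 against 21.8 (2.07), the chaperone Fkbp5 19.2 against 4.13 (1.98), the feedback inhibitor Errfi1 55.5 against 25.01 (1.12) and Tsc22d3 175.3 against 85.85 (1.02). Errfi1 was not higher against cluster 8 alone (-0.15), nor Fkbp5 with cluster 4 in the reference (-0.53). The Per1 mean of the reference was 1.41 without its highest cell. Among 14 heat shock genes 5 were higher and 1 lower (median 0.46), and of these Dnajb1, which presents clients to Hsp70, averaged 114.8 against 5.29 (4.20) and the inducible Hsp70 gene Hspa1a 506 against 147.3 (1.77). The Dnajb1 level was low in the reference only: clusters 7 and 8 of other plates averaged 115.3 and 190.9. Hspa1b had 21.4 against 6.66 (1.55, but 0.806 in rows H to O), and since it is nearly identical to Hspa1a the split of reads between them is uncertain. Hspe1, a mitochondrial chaperonin, was at 25.2 against 69.7 (-1.43), with -0.46 in rows H to O and -0.53 once the highest cell of each class was left out. Of 12 unfolded protein response genes 2 were higher, no larger a share than over all genes, and of 6 measured metallothionein and hypoxia genes 2 higher and 1 lower.

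**Figure D2:**
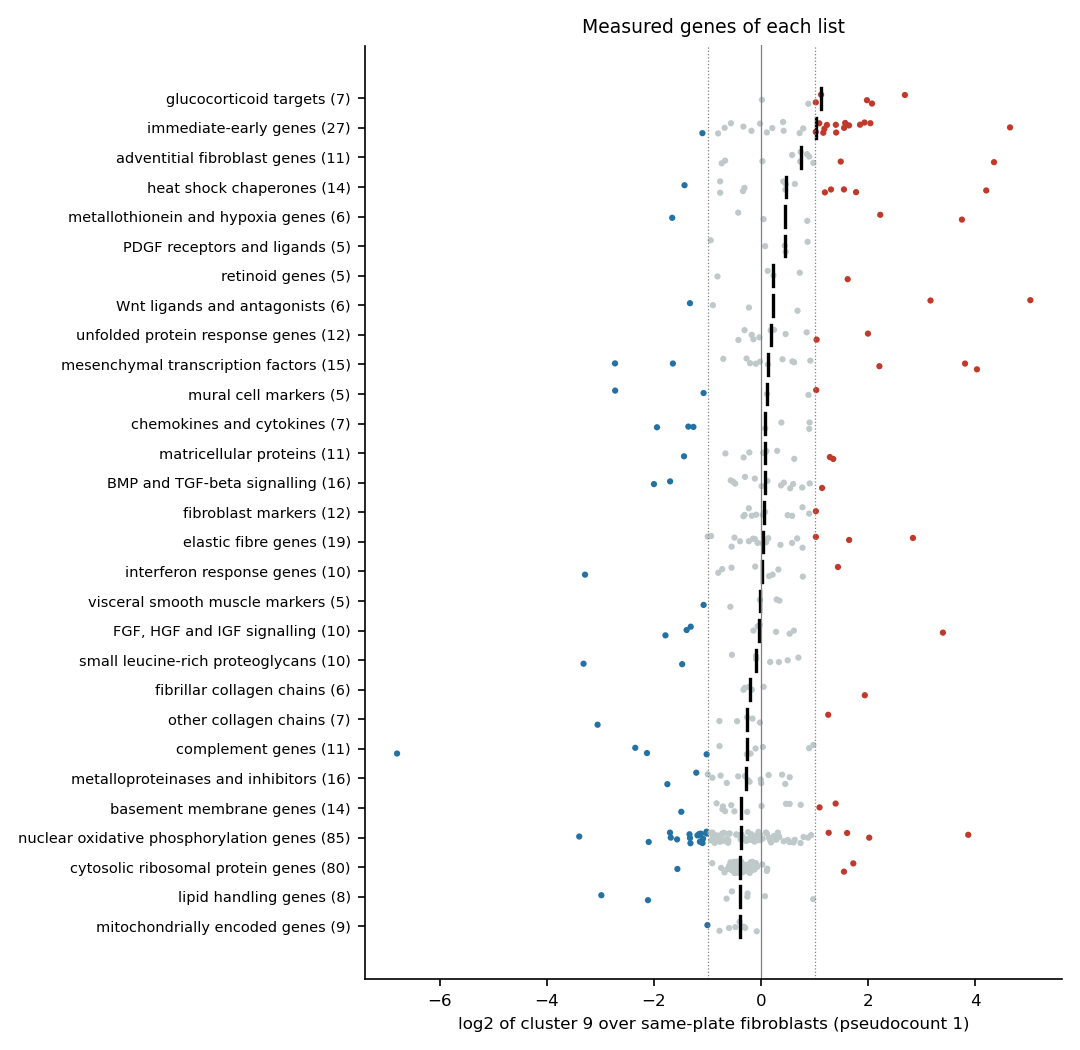
Log2 ratio of mean levels, cluster 9 over same-plate fibroblasts, for the measured genes (points, number in brackets) of each list with at least 5 measured, with the list medians marked. Glucocorticoid targets (median 1.12) and immediate-early genes (1.02) lie to the right, ribosomal protein genes (-0.40) a little to the left.

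Several single genes were read in most cluster 9 cells and few of their plate neighbours. Ranking measured genes by the difference in the share of thinned cells with a read, a ranking chosen after the values were seen, put 2 atypical chemokine receptors near the top. Ackr3, which takes up CXCL12, was read in 90.6% of cluster 9 cells (82.3% to 95.8%) and 26.9% of the reference cells (11.6% to 47.8%). Its level ran from 0 to 1449 with a median of 385 in cluster 9, and its median in the reference was 3.03 with a highest cell at 764. The means were 439 and 82.2, a log2 ratio of 2.40.

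Ackr2, a scavenger of inflammatory CC chemokines, was read in 74.1% of cluster 9 cells and 23.1% of the reference. Its median was 272.5 in cluster 9 and 0 in the reference, its highest cells 1547 and 353, and its means 350 and 32.2 (3.4). Most cluster 9 cells carried it and most reference cells did not, with overlap at the low end. In rows E to G the share was 85% and in rows H to O 48%, and the log2 ratio was 2.37 and 4.37.

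C1qtnf3, a secreted C1q-related protein, was read in 71.8% and 26.9% of cells and averaged 592 against 84.2 (2.80), with medians of 511 and 1.80. Dpt, which encodes the matrix protein dermatopontin, was read in 81.2% and 34.6% of cells and averaged 296.9 against 105.3 (1.49). C1qtnf3 had means of only 3.67 and 2.02 in clusters 7 and 8 of the plate, so its reference level came from the few cells of clusters 2, 5 and 6, whereas Dpt reached 178.1 in cluster 8. Without its highest cell the C1qtnf3 mean of the reference was 26.4, so 1 cell made up most of it. The potassium channel Kcnn3 was read in 77.6% against 34.6% of cells (1.13), Itgbl1 in 80% against 38.5% (0.78) and the procollagen enhancer Pcolce2 in 72.9% against 30.8% (0.40). By rows E to G and H to O the log2 ratio was 2.31 and 0.79 for Dpt, 4.89 and 0.54 for Kcnn3, and -0.51 and 1.20 for Pcolce2.

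The further genes of that ranking were Prn (72.9% against 34.6%, log2 ratio 1.27), the thrombin receptor Thbd (64.7% against 23.1%, 1.35), Pianp (63.5% against 15.4%, 1.84), the bile acid enzyme gene Hsd3b7 (60% against 15.4%, 1.76) and the mitochondrial exchanger Slc8b1 (48.2% against 3.85%, 2.83). Prn (0.70) and Thbd (0.53) stayed below 1 in rows H to O, and Pianp (0.81) and Hsd3b7 (0.50) in rows E to G. The Slc8b1 mean of the reference was 18.2, and 1.31 without its highest cell. A median of 9 of these 12 genes was read per cluster 9 cell, against 3 per reference cell, 2 in cluster 4 and 1 in cluster 10 of the plate. At least 7 were read in 87.1% of cluster 9 cells and 7.69% of reference cells, which follows from how they were picked. The share was 98.3% in rows E to G and 60% in rows H to O. On the other plates, which took no part in the ranking, 96.2% of cluster 3 cells, 94.1% of cluster 11, 89.8% of cluster 6, 83.8% of cluster 1, 76.2% of cluster 8, 66.1% of cluster 7 and 29.7% of cluster 5 cells reached it, in libraries with more genes per read.

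**Figure D3:**
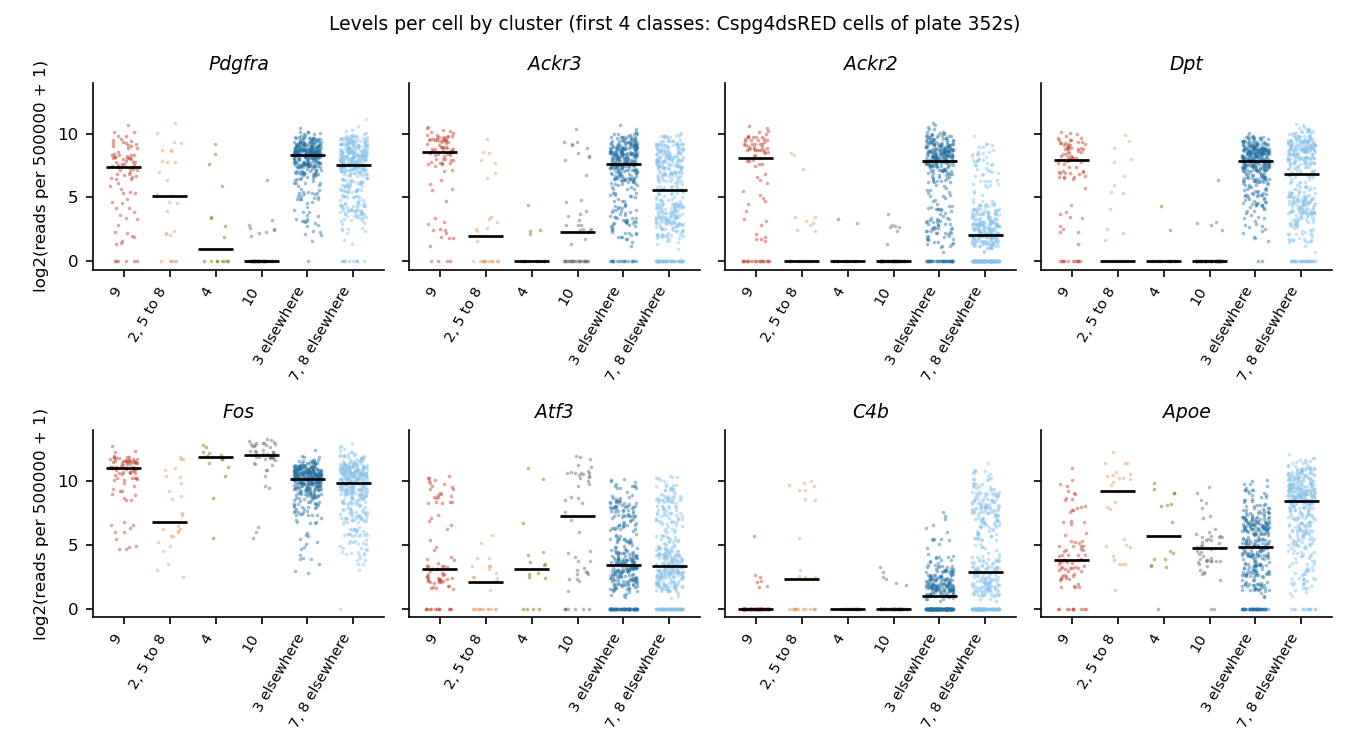
Level of 8 genes in single cells, as log2 of reads per 500000 plus 1, for cluster 9, the same-plate fibroblasts, clusters 4 and 10 of the plate, and clusters 3 and 7 with 8 of other plates; each point is a cell and each line a median. Ackr3 and Ackr2 are high in most cluster 9 and cluster 3 cells, and C4b is near 0 in both.

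Of the measured genes 4 of 11 for complement and 2 of 8 for lipid handling were lower, beside 17.7% of all genes. C4b, a central complement component, was read in 3.53% of cluster 9 cells (0.734% to 9.97%) and 42.3% of the reference (23.4% to 63.1%). Its highest cluster 9 cell had 51.5 reads per 500000 and its highest reference cell 995, and the means were 0.852 and 204.97, a log2 ratio of -6.80. Clusters 7 and 8 of the plate had nearly the same level, 216.3 and 224.4. C4b and C4a are close copies, so the assignment of reads between them is uncertain. C2, the protease that joins C4b, was read in 17.6% against 53.8% of cells (28.9 against 151.5 on average, -2.35), a difference found in rows H to O (-3.88) and not past the limit in rows E to G (-0.42).

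Of 11 measured complement genes 4 were lower, none was higher and 7 passed in neither direction (median -0.27), the lower ones besides C4b and C2 being Cfb (-1.02) and C3 (142.8 against 629, -2.13). The C3 difference came from 1 cluster: cluster 8 averaged 1526 and cluster 7 120.9, so against cluster 7 the ratio was 0.24, and in rows E to G it was 1.3. C1s1, C1ra and the inhibitor Serping1 were level, at 382.5 against 460, 294.99 against 317.01 and 2532 against 2474. Cd55, which protects cells from complement, was read in 91.8% against 53.8% of cells and had a log2 ratio of 0.98.

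Apoe, the carrier of lipids between cells, averaged 119.5 in cluster 9 and 951 in the reference (-2.98), with medians of 12.8 and 590. The difference held for rows H to O (-2.61) and not for rows E to G (0.27), where it was low in both classes. Plin2, which coats lipid droplets, averaged 24.5 against 109.2 (-2.11). These were the 2 lower genes of 8 in the lipid list, whose median was -0.40 and turned to 1.43 against cluster 7 alone. Tmem176b, a membrane protein gene, was read in 50.6% against 84.6% of cells and averaged 125.5 against 840 (-2.73), and the ratio was lower in both blocks of rows (-1.56 and -2.68).

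The other genes that the same ranking put at the low end were the purine salvage enzyme Hprt (8.24% against 38.5% of cells, log2 ratio -3.27), the transcription factor Klf7 (30.6% against 69.2%, -1.82), the sodium channel Scn7a (24.7% against 61.5%, -1.55), Eny2 (-2.04), the kinase Rock1 (-1.91), Srp72 (-1.67), Ces2g (-1.38), Znhit3 (-1.32) and Racgap1 (0.21). Srp72 (-0.34) and Znhit3 (0.87) did not pass in rows E to G, nor Scn7a (-0.81) in rows H to O. Znhit3 was at -0.80 without the highest cell of each class. A median of 2 of these 12 genes was read per cluster 9 cell and 6 per reference cell. On other plates, in libraries with more genes per read, the median was 5 in clusters 2, 3, 6 and 8. It was 4 in cluster 11, 6 in clusters 5 and 7 and 7 in cluster 1. Racgap1 had a slightly higher mean in cluster 9 because a single cell reached 265.1, although fewer of its cells had a read.

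Genes chosen by the size of the ratio, with the same direction against clusters 7 and 8 alone, were sparse. Among the highest were Gpr1 (log2 ratio 5.65), Mtap (5.21), Trim11 (5.16), Fam20c (5.10), Lrrn2 (5.10), Tbxa2r (5.09), Pmm2 (5.08), Sfrp4 (5.03), Fgf9 (5.01), Commd9 (4.98) and Kazn (4.96). They were read in 15.3% to 34.1% of thinned cluster 9 cells. Lrrn2 had no read in any reference cell, and against a floor of 3 reads over that class it was at least 89.1-fold higher. Fgf9, a growth factor ligand, was read in 43 of the 85 cells before thinning and 8 of the 27 reference cells, with means of 64.9 and 1.04, and kept its ratio in rows E to G (4.84) and H to O (5.38).

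Among the lowest ratios after that of C4b were those of Rhobtb3 (-4.71), Atr (-3.87), AU022252 (-3.82), Kbtbd4 (-3.69), Fnip1 (-3.51), Nicn1 (-3.50), Slc35b3 (-3.45), Trim25 (-3.31), Fer (-3.29) and Hprt (-3.27). These were read in 19.2% to 38.5% of the 26 thinned reference cells, and before thinning in 6 to 10 of the 27. Without the highest cell of each class their ratios ran from -4.53 for Rhobtb3 to -2.41 for Fer.

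Counts over all genes were large in both directions. At a log2 ratio of 1 or more 1298 genes were higher, and at -1 or less 1263 were lower. Of all measured genes, 11.2% and 4.56% also passed against clusters 7 and 8 each. Among the 2801 genes with a mean of at least 20 and a read in at least 30% of cells, 10.9% were higher and 9.68% lower, and of these 45.1% and 33.6% passed in both blocks of rows, beside 5.21% and 3.64% of all genes at that level. Among these more abundant genes, ranked by the weaker of both block ratios, the highest past the limit in both blocks included Fgf9, Mn1, Rusc1, Plekhf1, Atf3, Ldlrad4, Anxa3 and Dnajb1, and on the lower side Eny2, Gnai3, Stip1, Cspg4 and Mrpl20. Mn1 averaged 88.1 in cluster 9 and 2.23 in the reference, but 64.3 and 93.2 in clusters 7 and 8 of other plates.

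In 3 matrix lists genes were higher about as often as over all genes, of which 18.2% were higher and 17.7% lower. Of 6 measured fibrillar collagen chains 1 was higher and none lower, of 19 elastic fibre genes 3 were higher and none lower, and of 11 matricellular genes 2 were higher and 1 lower. Smoc2 encodes a secreted calcium-binding matrix protein: its median was 1750 in cluster 9 and 430 in the reference, and its means were 1777 and 699 (1.35). Thbs2, an antiangiogenic thrombospondin, averaged 768 against 314.8 (1.28). Eln, the gene of elastin, averaged 314.1 against 99.9 (1.64), Ltbp2 75.2 against 9.67 (2.84) and Fbln2 437 against 214.8 (1.02). Col5a3 (74.4 against 18.7, 1.94), Col8a1 (189.8 against 79.1, 1.25) and the basement membrane chain Lamb2 (264.04 against 100, 1.39) were also higher. In rows E to G, which hold 60 of the 85 cells, Fbln2 (0.20), Col8a1 (0.16), Lamb2 (0.67) and Thbs2 (0.96) stayed below 1, as did Smoc2 in rows H to O (0.97). Vcan averaged 99.75 against 272.2 (-1.44), but its median over thinned cells was higher in cluster 9.

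Of 11 measured fibroblast genes of the vessel sheath and loose tissue 2 were higher and none lower, the same share as the 18.2% of all genes, with a median of 0.74 that was 0.28 against cluster 7 alone. The 2 were Dpt and the annexin gene Anxa3 (112.5 against 4.57, 4.35). On other plates Anxa3 averaged 60.6 in cluster 7 and 70.2 in cluster 8. Pi16 averaged 3557 against 1963 (0.86) and Cd34 1382 against 741 (0.90). Summed over the list, thinned reads had medians of 706 in cluster 9, 340 in the reference, and on other plates of 550 to 710 in cluster 3 and 516 to 690 in cluster 7.

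Several signalling genes depended on which reference cluster was used. Cxcl14 averaged 101.1 in cluster 9, 0.839 in cluster 7 and 602 in cluster 8, Fmod 26.96, 0.298 and 589, and Igf1 37.3, 7.42 and 122.4. Wnt2 had the opposite order, with 137.2 in cluster 9, 685 in cluster 7 and 12.9 in cluster 8, as had Col12a1 with 6.01, 69.75 and 1.77. For these genes cluster 9 lay between both clusters of its plate. Wnt5b (20.7 against 1.42, 3.16) and the Wnt antagonist gene Sfrp4 (40.3 against 0.267) were higher against each, although 1 cell at 1779 raised the Sfrp4 mean, which was 19.6 without it. Also higher against each were the transcription factor genes Klf5 (4.03), Meox1 (3.81) and Gata6 (2.21). Klf5 and Meox1 were lower in cluster 9 once cluster 4 was included. Aldh1a3, a retinoic acid synthase gene, averaged 52.2 against 16.35 (1.62), with 0.32 in rows E to G and 3.56 in rows H to O. The chemokine gene Cxcl16 had a log2 ratio of -1.26 over all rows but -0.07 and -0.75 within the blocks, so it passed in neither.

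Few ribosomal protein genes passed the limit, while oxidative phosphorylation genes were lower about as often as the 17.7% of all genes. Of 80 ribosomal protein genes 2 were higher and 1 lower with a median of -0.40, and of 85 nuclear oxidative phosphorylation genes 4 were higher and 17 lower with a median of -0.38. For the oxidative phosphorylation genes the median was -0.00147 against cluster 7 alone and 0.275 against cluster 8 alone. Both lists were found by symbol prefix, which also takes in some relatives such as Rps27l. The 9 mitochondrially encoded genes had a median of -0.40 with 1 lower. Counts for the remaining lists are given beside the 18.2% higher and 17.7% lower of all genes, and with so few members nothing particular to a list is read from them. As higher and lower of measured they were 2 and 1 of 14 basement membrane genes, 1 and 1 of 7 other collagens, 0 and 2 of 10 leucine-rich proteoglycans, 0 and 2 of 16 metalloproteinases and inhibitors, 2 and 1 of 6 Wnt genes, 1 and 2 of 16 BMP and TGF-beta genes, 1 and 3 of 10 FGF, HGF and IGF genes, 0 and 0 of 5 PDGF genes, 0 and 3 of 7 chemokines and cytokines, 1 and 1 of 10 interferon response genes, 1 and 0 of 5 retinoid genes, 0 and 2 of 8 lipid genes, 3 and 2 of 15 mesenchymal transcription factors, 1 and 1 of 4 nuclear-retained RNAs and 0 and 0 of 1 cell cycle gene.

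Snx33, Imp3 and Snupn, which lie next to Cspg4, were higher in fibroblasts of the Cspg4dsRED line than in those of the other lines. Cspg4 lies on chromosome 9 of GRCm38 at 56865033 to 56899870, followed by Snx33, Imp3 and Snupn and preceded by Odf3l1 in GENCODE M21. Imp3, a ribosome assembly factor gene at 56937475 to 56938398, was read in 100% of cluster 9 cells with 91.6 to 1064 reads per 500000 and a median of 421. The same-plate fibroblasts had a median of 485 and the 9 Cspg4dsRED fibroblasts of the second plate one of 365, with no cell of those 9 below 210. In the fibroblasts of the other lines the group means were 17.9 to 75.6, against 447 in cluster 9, a log2 ratio of 3.31.

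Snx33, a sorting nexin gene at 56917193 to 56928371, averaged 239.03 in cluster 9 (median 147.3) and 22.9 to 57.4 in the groups of other lines (2.55). Snupn, which encodes the snurportin that imports spliceosomal particles, at 56950878 to 56983206, averaged 111.7 (median 4.70) and 6.09 to 12.1 (3.56). Unlike Imp3 and Snx33, with same-plate log2 ratios of -0.10 and 0.09, Snupn also differed from the same-plate fibroblasts, which averaged 47.5 (1.21), with 0.96 in rows E to G and 1.42 in rows H to O. It was read in 55.3% of cluster 9 cells and 30.8% of that reference, and averaged 77.7 in the 6 cluster 9 cells of other lines. Odf3l1, at 56848659 to 56864679, was at 0.585 in cluster 9 and 143.6 in cluster 10 of the plate, and its means over all cells were 38.5 and 40.1 on the plates of the line and at most 0.371 elsewhere. Of the genes further out, Lingo1, Ptpn9, Sin3a and Man2c1 were not above the other lines on both plates. Of 10102 genes compared in fibroblasts, 22 were at least 2-fold above every other group on both plates of the line, and 4 of these 22 were Cspg4, Snx33, Imp3 and Snupn. These genes were chosen after their values were seen, and whether they lie on the transgene is not given in the sources used here and was not tested.

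The 6 cluster 9 cells of other lines had Imp3 levels of 0 to 298.99 with a median of 57.2, Snx33 of 0 to 6.30 and no Cspg4 read. Since Imp3 was as high in the same-plate fibroblasts as in cluster 9 (log2 ratio -0.10), it did not set the cluster apart on its plate. Single cells of other lines reached 833, so the ranges overlapped.

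**Figure D4:**
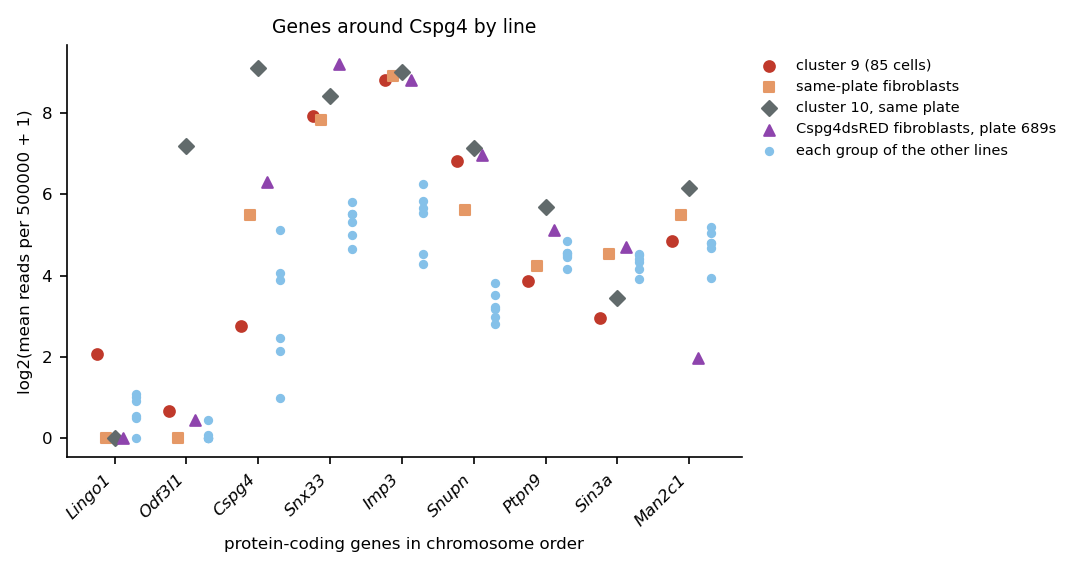
Mean level, as log2 of reads per 500000 plus 1, of protein-coding genes around Cspg4 in chromosome order, for cluster 9, other classes of the Cspg4dsRED line and all cells of each group of the other lines. Imp3 and Snx33 have means of 447 and 239.03 in cluster 9, above the other lines, and Cspg4 and Odf3l1 are highest in cluster 10.

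Among the fibroblasts of other plates, cluster 3 came closest to cluster 9 in most comparisons, by a small margin. Over pairs of thinned cells, the mean Pearson correlation across genes was 0.364 within cluster 9. It was 0.350 to 0.382 with cluster 3 over 6 groups of line and plate, 0.346 to 0.370 with cluster 6, 0.359 with cluster 11, 0.345 to 0.368 with cluster 1, 0.316 to 0.355 with cluster 7 and 0.321 to 0.354 with cluster 8. On the own plate it was 0.326 with cluster 7, 0.314 with cluster 8, 0.280 with cluster 4 and 0.226 with cluster 10. Cluster 2 elsewhere had 0.308 to 0.358, cluster 5 0.267 to 0.334 and cluster 10 0.218 to 0.277, so clusters 7 and 10 of the own plate lay within the range of those clusters on other plates and cluster 8 just below it. These values share gene-specific levels and may depend on the number of genes in a library, which was not tested. Their order across plates is therefore a description. Within each of the 6 groups cluster 3 had the highest value of its clusters over pairs of cells. With the levels of clusters 7 and 8 of each plate subtracted, all correlations were below 0.12 and cluster 3 came first in 4 of the 6. Over the 1000 most variable genes it came first in 3 and cluster 6 in the other 3.

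**Figure D5:**
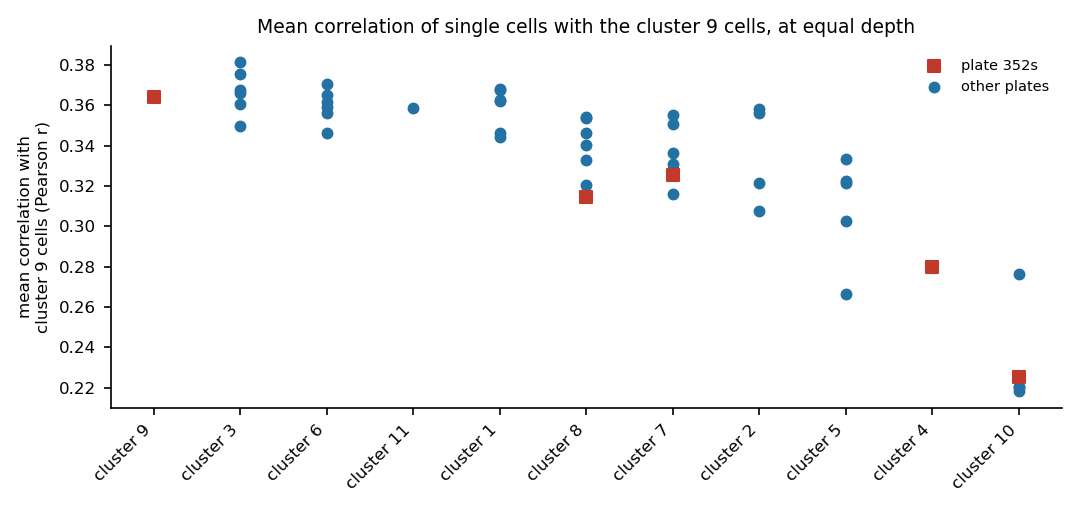
Mean Pearson correlation between cluster 9 cells and cells of each other cluster after thinning to 50000 reads, with 1 point per line and plate. Cluster 3 of other plates lies at 0.350 to 0.382 and cluster 10 at 0.218 to 0.277.

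Levels of single genes were graded over the clusters of other lines, given as means of 6 groups for clusters 1, 3, 6, 7 and 8, of 5 for cluster 5 and of 4 for cluster 2. Ackr2 averaged 278.9 in cluster 3 (highest group mean 388), 113.9 in cluster 6, 72.98 in cluster 2, 54.5 in cluster 7, 17.8 in cluster 8 and 2.40 in cluster 5, beside 350 in cluster 9. C1qtnf3 averaged 486 in cluster 3, 624 in cluster 6, 268.6 in cluster 8 and 14.3 in cluster 7, beside 592. On the low side, C4b averaged 6.66 in cluster 3 and 9.79 in cluster 6, but 210.4 in cluster 7, 227.99 in cluster 1 and 222.4 in cluster 5. Cluster 8 (75.7, lowest group 1.62) and cluster 2 (122.8, lowest group 6.21) lay between for C4b, with groups that overlapped clusters 3 and 6. C2 averaged 9.05 and 11.1 in clusters 3 and 6 and 38.3 to 165.2 in clusters 1, 5, 7 and 8, with 33.6 in cluster 2, and Tmem176b 85.8 and 72.5 against 353 to 517 in those 4 and 305.7 in cluster 2. By these means, high Ackr2 and C1qtnf3 with low C4b and Tmem176b went together in clusters 3, 6 and 9. Tmem176b averaged 125.5 in cluster 9. C2, at 28.9 in cluster 9, was above clusters 3 and 6 and nearer to cluster 2. The 1 group of cluster 11 shared the combination, with 123.7 for Ackr2, 461 for C1qtnf3, 1.86 for C4b and 97.2 for Tmem176b. Its C2 mean was 19.8. These genes were picked in cluster 9 after its values were known.

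Some genes set cluster 9 apart from cluster 3 as well. Of 8962 genes measured for that comparison, 476 (5.31%) were at least 2-fold higher in cluster 9 and outside the range of the 6 cluster 3 groups, and 1252 (14%) were lower. Clusters 7 and 8 of the plate were each at least 2-fold lower than elsewhere for 495 of the 1252 lower genes. They were each at least 2-fold higher than elsewhere for 28 of the 476 higher ones. Other genes passed that limit in cluster 7 or cluster 8 alone. Genes that neither cluster shared by that limit made up 3.17% (higher) and 2.27% (lower) of the 8962. Ranked among those that neither cluster shared, the homeobox gene Meox1 averaged 18.1 in cluster 9 and 0.150 in cluster 3 (log2 ratio 4.06), Fbln7 11.7 and 0.715 (2.89), Pdlim4 17.8 and 1.78 (2.76) and Cited2 11.6 and 1.39 (2.40). They were read in 4.71% to 14.1% of the thinned cells, and without its highest cell the cluster 9 mean was 5.01 for Fbln7 and 7.33 for Cited2. Slc36a4 (0.472 against 21.1, -3.91), Tmem186 (0.0380 against 12.1, -3.65), Fam53c (1.05 against 22.8, -3.54) and Prr14l (0.747 against 18.7, -3.50) were lower.

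The 6 cells of other lines were set against fibroblasts of their own plates. A median of 9 of the 12 genes ranked highest by share was read in them, and 5 of 6 (83.3%) had at least 7, beside 83.8% of cluster 1 and 96.2% of cluster 3 on those plates. Of the 12 genes ranked lowest a median of 4.5 was read, against 2 in cluster 9 of the main plate. C4b and C2 were below the fibroblast mean of their own line in 6 of 6, with at most 9.45 reads per 500000 of C4b. Genes higher in cluster 9 of the main plate could be below in 6 of 6 too, among them Gpr1, Tbxa2r, Klf5 and Thbs2. A count of 6 of 6 below a mean is therefore not particular to the lower genes. Ackr3 was above in 5 of 6 cells. Ackr2 and C1qtnf3 were above only in both PdgfrbGFP cells, at 140 and 405 for Ackr2, and were at 1.48 to 4.34 for Ackr2 in the 3 C57BL6 cells and the Acta2GFP cell. Across the more abundant genes that were higher on the plate, the mean of the 6 cells was above the mean of their own fibroblasts for 47.4%, beside 46.3% of all 2801 such genes. For the lower genes it was below for 63.5%, beside 53.7%. Over all measured genes the shares were 36.9% of the 1298 higher genes, beside 38.1% of all 7130, and 69.3% of the 1263 lower genes, beside 61.9%.

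Cells varied within cluster 9. The genes with the most spread for their level were the peroxidase Gpx3, Smoc2 (0 to 411 of 50000 thinned reads), Spon2 (0 to 388), Mfap4 (0 to 360), Fos (1 to 715), Nr4a1 (0 to 448), Thbs2 (0 to 405) and Igfbp4 (0 to 555). Smoc2 correlated with Thbs2 over the 85 cells (Pearson r 0.582 on log2 thinned reads), with 0.586 in rows E to G and 0.543 in rows H to O. Thbs2 with C1qtnf3 gave 0.522, with 0.276 and 0.817 in both blocks, and Smoc2 with Fos 0.268. These cells share a plate and a depth, and the correlations are given as a description.

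Part of the spread followed the rows. Within cluster 9, 80 genes were read in a share of cells at least 30 points higher in rows E to G and 12 in rows H to O. The neuropeptide Y receptor gene Npy1r was read in 68.3% of cells in rows E to G and 16% in rows H to O, the glypican gene Gpc3 in 78.3% and 28%, C1qtnf3 in 85% and 40%, and the lysophosphatidic acid receptor gene Lpar1 in 73.3% and 32%. In the other direction the growth factor gene Gdf10 was read in 31.7% and 72%, the potassium channel subunit gene Abcc9 in 25% and 64%, Apoe in 60% and 96% and Bok in 3.33% and 40%. Igfbp5, whose log2 ratio over all rows was 3.39, was -2.71 in rows E to G and 7.55 in rows H to O, and its cluster 9 mean of 76.2 was 39.8 without its highest cell. The genes named for their shares by row were chosen after their values were seen, and the shares are those at 50000 reads.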

How the data were processed

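Single CD31-negative cells of the bladder were sorted into 384-well plates, and Smart-seq2 libraries were made with 92 ERCC spike-in transcripts in the lysis buffer. The authors trimmed the reads, aligned them to GRCm38 with TopHat2 and Bowtie, counted them per gene with featureCounts, removed shallow, spike-in-rich and very gene-rich cells, cells with neither Pdgfra nor Pdgfrb and cells with endothelial or immune signatures, and deposited raw counts of 46517 gene rows. The annotation release and the strand setting are not given in the sources used here, so genes that overlap or are antisense share reads. Clusters are the authors' labels, made with pagoda2. Every count column matched 1 labelled cell, and no further doublets were called.

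Counts were divided by the endogenous reads of a cell and multiplied by 500000. Class means were compared as log2 ratios with a pseudocount of 1, over genes with a mean of at least 5 and reads in at least 10% of cells. Shares of cells were taken after thinning to 50000 reads (seed 1), with exact Clopper-Pearson intervals. No test was run, as the labels name no animals. Depth per cell limits detection of low genes. Named genes were the 12 highest and 12 lowest ratios with 1 sign against clusters 7 and 8, up to 4 per gene list past a log2 ratio of 1, the reporter and marker genes, and up to 4 in each direction against cluster 3; others are stated as chosen after their values were seen. Some genes that the rule names are not reported here. The members and lists were chosen with earlier results of these data known. Alternatives were other scalings (edgeR 4.0.16 TMM and DESeq2 1.42.0 size factors, used for scaling only), filters, pseudocounts, references, depths and rows. The scripts were tested on simulated data and used Python 3.11.15, numpy 2.4.6, scipy 1.17.1 and pandas 2.3.3.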

Additional observations from a re-analysis of the deposited data

How the results depend on the processing

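Genes at a log2 ratio of at least 1 made up 18.2% of those measured as reported (1298). They were 18.4% without a filter (3568 genes), 10.9% with the stricter filter, 29.7% against cluster 7 alone (2071), 37.9% against cluster 8 alone (2625), 6.62% for medians over thinned cells (472), 32.4% with the highest cell of each class left out (2004) and 31.4% in rows E to G (2251). Genes at -1 or less, 17.7% as reported (1263), were 14.5% without a filter (2819), 9.68% with the stricter filter, 3.09% for medians over thinned cells and 9.64% with the highest cell left out (596). TMM gave 1654 higher and 1048 lower genes and DESeq2 size factors 1618 and 1075, with the median of all genes at 0.15 and 0.14 in place of -0.05. Of the 91 genes past a log2 ratio of 1 or -1 as reported, 21 changed sign under some alternative. Of 31 list medians, 24 changed sign under some alternative, 11 of them against cluster 7 alone and 11 with cluster 4 added to the reference. With cluster 4 added to the reference the log2 ratios were -0.00161 for Acta2, -0.218 for Egr1, -0.531 for Fkbp5, -0.00793 for Fosl2, -0.471 for Igfbp5, -3.01 for Klf5, -1.72 for Meox1, -0.515 for Nr4a1 and -0.302 for Zfp36. In rows E to G they were 0.269 for Apoe, 1.3 for C3, -2.71 for Igfbp5, 2.08 for Nr4a2 and 0.875 for Znhit3. Against cluster 7 alone they were 0.238 for C3, 5.8 for Cxcl14, 4.43 for Fmod, 1.48 for Hspe1 and 2.19 for Igf1, and against cluster 8 alone 1.34 for Col12a1, -0.146 for Errfi1 and 3.32 for Wnt2. Nr4a2 was at 0.478 in cells with at least 100000 reads and 0.328 with the highest cell left out, and Vcan at 4.95 for medians over thinned cells. The cause of these changes was not tested. No paired analysis was possible because the replicate numbers only name cells in accession order. The 27 reference cells limit the precision of the genes lower in cluster 9.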
